A study of Mus musculus with 14 samples.

Results

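The insulin-like growth factor (IGF) axis was followed through 10 genes in mouse bone tumours: the ligand genes Igf1 and Igf2, the receptor gene Igf1r, the binding protein genes Igfbp2 to Igfbp6, and the pappalysin genes Pappa and Pappa2. They were chosen by their place in the pathway, with earlier results of these data known, and each was read from its brightest probe set, selected on the highest mean signal over all 14 arrays. All 10 were among the 11815 genes tested, for which a signal of 200 units on any array was required; Pappa2 reached it in mc3T3 only.

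RNA came from 12 osteosarcomas and from 1 tumour labelled rhabdomyosarcoma, all of which arose in p53+/- mice, while the p53 genotype of mc3T3 is not given in the labels. A single array held RNA of mc3T3, a mouse osteoblast line described as non-tumorigenic and grown untreated in alpha-MEM with serum, which the design names as the control. The groups come from the titles, because the description field of all 14 samples carries the same text on mc3T3. The labels used here give no age, sex or site of the animals, nor do they tie each of the 12 tumours to an animal of its own, and p-values accordingly reflect only the spread among these arrays, which may be partly technical.

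IGF1 and IGF2 are small secreted proteins that signal through the receptor tyrosine kinase IGF1R. Outside cells nearly all IGF is held by binding proteins, which keep it from the receptor, and in bone IGFBP-5 also attaches to the mineralised matrix. The pappalysins are secreted metalloproteinases that cut certain binding proteins and so release IGF; PAPP-A acts mainly on IGFBP-4 and IGFBP-5, and PAPP-A2 on IGFBP-3 and IGFBP-5. The axis drives growth of bone, in which IGF1 and IGF2 are stored in large amounts.

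The arrays were alike in depth of signal. Their median signal was 67 to 111 units, and 33.8% to 40.3% of probe sets had at least 200 units. The 3'/5' signal ratio of beta-actin, a sign of RNA quality, was 1.42 to 2.13 over the 12 osteosarcomas, 1.32 in mc3T3 and 1.24 in the lone other tumour, so that both single arrays lay below the range, and its part in either comparison was not tested. No detection calls were used, so that a signal under 200 could not be told from background. In the array of mc3T3, 5 of 9 osteoblast markers were under 200 units (Ibsp, Dmp1, Phex, Ifitm5 and Panx3), while Col1a1, Col1a2, Alpl and Sp7 were above it. In the tumour labelled rhabdomyosarcoma all 7 myogenic markers tested were under 200, Myod1 at 39.4 and Myog at 65.9 among them, and it is therefore called by its label only.

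**Figure D1:**
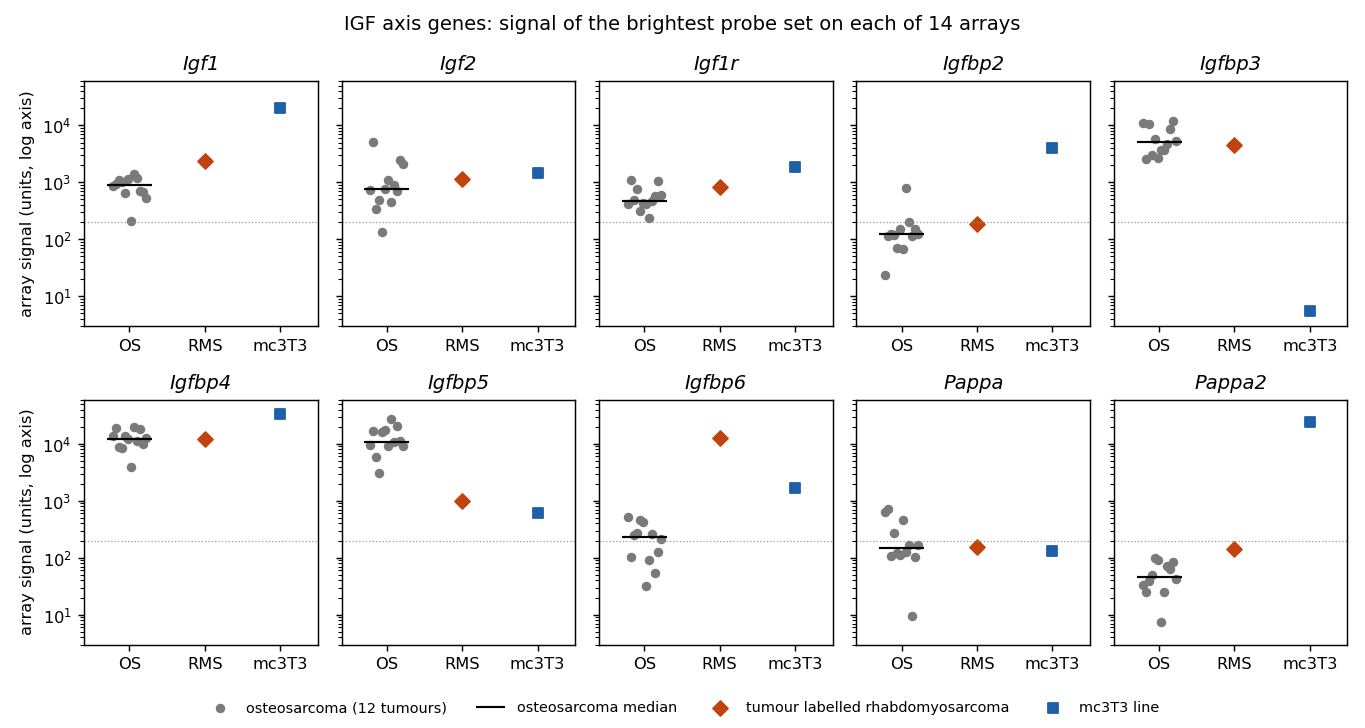
Array signal of each gene's brightest probe set (y axis, units, log scale) on the 12 osteosarcomas (OS, grey points, with their median as a black line), the tumour labelled rhabdomyosarcoma (RMS, orange diamond) and mc3T3 (blue square); the dotted line marks 200 units. Pappa2, Igf1 and Igfbp2 are highest in mc3T3, Igfbp3 is lowest there at 5.5 units, and Igfbp6 is highest in the tumour labelled rhabdomyosarcoma at 12626 units.

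The osteosarcomas were first set against mc3T3, the comparison with the control. The tumours had less Igf1, Igfbp2 and Igfbp6 RNA than the cultured line, Pappa2 under 200 units in all of them, and more Igfbp3 and Igfbp5 RNA. A gene was called where limma's two-sided test gave an adjusted p under 0.05 and log2(signal + 30) differed by 1 or more; by this rule 2 of the 10 genes rose and 4 fell. The 4 include Pappa2, which passed the filter only through mc3T3, where it is high, and so had to differ; of the other 9 genes 3 fell. Over all genes tested 13.2% were called in this comparison, 8.59% as higher and 4.58% as lower. The median difference was -1.65 for the 10 genes and -0.02 for all genes. Since the genes were chosen with results known, these counts and medians are a description. For Igf2 and Pappa the signal in mc3T3 lay inside the range of the 12 tumours. For the other genes it lay outside, as it had to for Pappa2. The share of all genes tested for which it lay outside was not computed, so no weight is put on this.

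The ligand genes behaved differently from each other. Igf1 had a signal of 20099 in mc3T3, against 211 in the lowest osteosarcoma, 903 in the median and 1415 in the highest. The groups did not overlap, and the difference was -4.60 ± 0.66 (SE; adjusted p = 0.000294). All 4 Igf1 probe sets were called lower in the tumours, by 3.82 to 4.60 on the log2 scale. Igf2, the fetal growth factor encoded by an imprinted gene, ranged from 134 in osteosarcoma 5 through a median of 749 to 5140 in osteosarcoma 2. Its signal of 1452 in mc3T3 lay inside that range, with 3 of 12 tumours above it. The difference of Igf2 was -0.77 ± 1.22 (adjusted p = 0.73), with a 95% interval from -3.37 to 1.84. The second Igf2 probe set did not exceed 36.6 units on any array and was fitted only as an alternative.

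Igf1r, the receptor through which both ligands act, had 1846 units in mc3T3 and 234, 476 and 1114 in the lowest, median and highest osteosarcoma. Every tumour lay below mc3T3, but the difference of -1.76 ± 0.60 did not pass (adjusted p = 0.067). The next brightest Igf1r probe set gave -2.28 ± 0.62 and was called lower (adjusted p = 0.024). The third brightest had 463.6 units in mc3T3, 23.2 to 140.2 in the osteosarcomas and 141.8 in the tumour labelled rhabdomyosarcoma. It passed the filter only through mc3T3 and so had to differ. Its difference of -2.17 ± 0.47, in a fit of all probe sets, is given as a description. The call was also made without osteosarcoma 2 (adjusted p = 0.0367) or without osteosarcoma 11 (adjusted p = 0.0408), the 2 tumours with the most Igf1r. The adjusted p of Igf1r ran from 0.0124 to 0.108 across the settings tried.

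Among the binding protein genes, Igfbp3 and Igfbp5 were high in every osteosarcoma. Igfbp3, which encodes the main IGF carrier of the circulation, had 2515 units in the lowest osteosarcoma, 5043 in the median and 12016 in the highest, against 5.5 in mc3T3. It rose by 7.23 ± 0.77 (adjusted p = 2.32e-05), and its other probe set, with 16.2 units in mc3T3, rose by 6.26 ± 0.73. The size of such a difference depends on the constant of 30 added to the signal, because the mc3T3 value is under 200, and it was 5.68 to 8.42 over the alternatives. Igfbp5 had 602 units in mc3T3 and 3114, 10997 and 27221 in the lowest, median and highest osteosarcoma. No osteosarcoma came near the line, and Igfbp5 rose by 4.17 ± 0.79 (adjusted p = 0.00263). The dimmer Igfbp5 probe set, with 167 units in mc3T3 and 198 to 2569 in the tumours, gave 2.27 ± 0.96 and did not pass (adjusted p = 0.139).

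Igfbp2 and Igfbp6 went the other way. Igfbp2, a binding protein with a preference for IGF2, had 3990 units in mc3T3 and 23.6, 122 and 800 in the lowest, median and highest osteosarcoma. Only osteosarcoma 8 reached 200 units, and Igfbp2 fell by 4.66 ± 0.87 (adjusted p = 0.00225). Igfbp6, the binding protein with the strongest preference for IGF2, had 1704 units in mc3T3 and 31.4, 230 and 510 in the lowest, median and highest osteosarcoma. It fell by 3.02 ± 0.94 with an adjusted p of 0.0468. This call stood at the threshold: it was lost under 11 of 20 alternatives (adjusted p = 0.019 to 0.0692), among them leaving out osteosarcoma 2, 3, 4, 8, 9, 11 or 12. Igfbp4, the substrate of PAPP-A, had 33793 units in mc3T3 and 3934, 12401 and 19823 in the lowest, median and highest osteosarcoma. All 12 tumours were below the line and all 6 Igfbp4 probe sets gave a negative difference, from -2.56 to -1.22, but none passed. The brightest gave -1.53 ± 0.61 (adjusted p = 0.117), and it passed only without osteosarcoma 7 (adjusted p = 0.047; 0.047 to 0.266 across the settings tried).

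Igfbp2 and Igfbp5 are immediate neighbours among the protein-coding genes of chromosome 1 (assembly GRCm38.p6), and their RNA differed from mc3T3 in opposite directions. To show how unlike the starts of these neighbours and of Igfbp3 are, the 250 bases before each annotated start are printed 5′ to 3′ from RefSeq (build GRCm38.p6). Capitals mark matches on either strand to 4 short motifs, none of which overlap here. The usual TATA-box motif searched was TATAAA. Its first variant, which reads the same on both strands, was TATATA. The other variant of that box was spelled TATTTAA. The GC-box motif, bound by Sp1-type factors, was GGGCGG. Igfbp2 lies on the plus strand at chr1:72824230-72824479, Igfbp5 on the minus strand at chr1:72874866-72875115, and Igfbp3 on the minus strand at chr11:7213924-7214173.
Igfbp2: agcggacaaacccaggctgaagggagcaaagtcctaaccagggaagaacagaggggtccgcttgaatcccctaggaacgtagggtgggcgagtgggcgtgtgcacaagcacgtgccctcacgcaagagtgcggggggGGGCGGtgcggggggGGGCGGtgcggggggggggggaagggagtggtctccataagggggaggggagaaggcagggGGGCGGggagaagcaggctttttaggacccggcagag
Igfbp5: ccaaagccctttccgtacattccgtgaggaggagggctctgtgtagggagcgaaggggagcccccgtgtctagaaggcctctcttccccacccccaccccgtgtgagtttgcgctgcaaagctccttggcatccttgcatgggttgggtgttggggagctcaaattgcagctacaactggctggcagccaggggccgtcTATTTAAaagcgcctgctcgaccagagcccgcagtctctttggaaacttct
Igfbp3: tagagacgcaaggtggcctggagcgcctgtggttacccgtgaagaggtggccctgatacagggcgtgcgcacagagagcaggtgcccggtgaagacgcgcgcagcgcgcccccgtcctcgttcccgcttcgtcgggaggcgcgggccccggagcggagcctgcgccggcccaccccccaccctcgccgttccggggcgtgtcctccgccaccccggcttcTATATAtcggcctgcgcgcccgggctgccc

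The window of Igfbp2 held 3 GC boxes and no match to the TATA motifs, whereas that of Igfbp5 held TATTTAA and that of Igfbp3 TATATA, each once and with no GC box. TATAAA also stood once before Igfbp4, at position -28, a gene that was not called against mc3T3. It stood once on the opposite strand before Igfbp6, whose call as lower was at the threshold. The TATATA of Igfbp3 began 30 bases before the start, at position -30, and the TATTTAA of Igfbp5 at position -51. Of 32851 promoter windows of this length, 32.7% held GGGCGG, 12.4% TATAAA, 5.25% TATATA and 4.18% TATTTAA. A window was found for 9 of the 10 genes, and Igfbp2 has a second listed start whose window held none of these motifs. The matches describe letters and were not tested against the RNA levels.

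The pappalysin genes were as unlike as the ligands. Pappa had 133 units in mc3T3 and 9.6, 146 and 704 in the lowest, median and highest osteosarcoma. By signal 6 tumours were above the line and 6 below. However, mc3T3 and all but 4 of the tumours were under 200 units, so most of these places have no meaning. The difference of 0.36 ± 1.08 did not pass (adjusted p = 0.869, 95% interval -1.96 to 2.67). Pappa2 had 23850 units in mc3T3, while the osteosarcomas had 7.4 in the lowest, 46.7 in the median and 99.4 in the highest. No osteosarcoma reached 200 units for Pappa2. Its difference of -8.26 ± 0.53 is given as a description with no p, since it was among the largest in earlier results of these data.

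**Figure D2:**
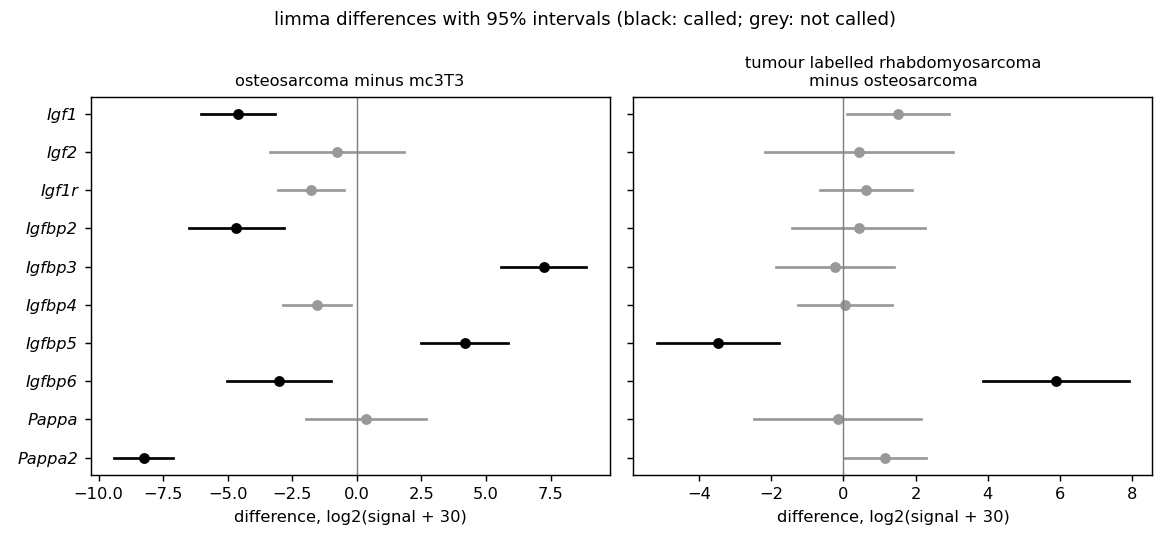
Difference of each gene (x axis, log2(signal + 30) scale) with its 95% interval from limma, for the osteosarcomas minus mc3T3 (left) and for the tumour labelled rhabdomyosarcoma minus the osteosarcomas (right); black marks calls and grey no call, and the 2 panels share the 12 osteosarcomas. On the left Igfbp3 (7.23) and Pappa2 (-8.26) lie farthest from 0, and on the right Igfbp6 (5.89) and Igfbp5 (-3.47).

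This comparison sets tumours of mixed cell types against a single array of a cultured line, and in such bulk samples fewer cells of a type and less RNA per cell cannot be told apart. Markers of other cell types moved with it. The 12 macrophage markers summed to 50045 to 119650 units in the osteosarcomas and to 485 in mc3T3, where all 12 were under 200. The 10 endothelial markers summed to 5006 to 15761 against 721, with 9 of 10 under 200 in mc3T3. The 10 osteoclast markers summed to 87539 to 186930 against 6937 in mc3T3, and limma called all 10 higher. The 4 adipocyte markers tested summed to 6288 to 33852 against 20.5. The 10 fibroblast markers summed to 46843 to 162940 in the osteosarcomas and to 125460 in mc3T3, where 3 of them were under 200. This sum hides markers that went opposite ways. Fap had 12292 to 29109 units in the osteosarcomas against 136 in mc3T3, and Postn 979 to 45707 against 54058. The part of these cell types in the differences of the IGF genes was not tested.

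The tumour labelled rhabdomyosarcoma was then set against the 12 osteosarcomas, which also served in the first comparison. It had far more Igfbp6 and less Igfbp5 RNA, and the other 8 genes were not called. Over all genes tested 2.95% were called here, 1.19% as higher and 1.76% as lower. The median difference was 0.43 for the 10 genes and 0.05 for all genes.

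Igfbp6 had 12626 units in this tumour, against 510 in the highest osteosarcoma and 1704 in mc3T3. The groups were far apart, with a difference of 5.89 ± 0.94 that kept its direction and call under all 20 alternatives and is given with no p, since it was also among the largest in earlier results. Igfbp5 had 995 units, below the lowest osteosarcoma at 3114 and above mc3T3. It fell by 3.47 ± 0.79 (adjusted p = 0.0274), but the dimmer probe set did not pass (-2.91 ± 0.96, adjusted p = 0.137). The fall of Igfbp5 also missed the threshold when osteosarcomas 6 and 9, the tumours richest in muscle genes, were left out (adjusted p = 0.0527) and with both of its probe sets averaged (adjusted p = 0.0529).

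Igf1 was higher in this tumour than in any osteosarcoma, at 2339 units against a highest value of 1415, but the difference of 1.52 ± 0.66 did not pass (adjusted p = 0.273). Pappa2 also lay above the osteosarcomas, at 144 units against 99.4 at most, and both values are under 200. For Igf1r the tumour had 821 units, for Igf2 1149, for Igfbp2 183 and for Igfbp4 11966, each within the range of the osteosarcomas. Igfbp3 had 4478 units, with 7 of 12 osteosarcomas above it, and its difference was -0.24 ± 0.77 (95% interval -1.88 to 1.40). Pappa had 156 units, under 200 as in all but 4 of the osteosarcomas.

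Cell type markers differed in this comparison too. The 9 osteoblast markers had a mean log2 level of 8.22 in the tumour labelled rhabdomyosarcoma and 12.81 to 13.72 in the osteosarcomas, and 7 of the 9 were under 200 in it. The macrophage markers had a mean log2 level of 13.02 against 10.69 to 12.54, above every osteosarcoma, with none of the 12 under 200. Their median difference was 1.60, but Csf1r and Laptm5 differed by only 0.19 and 0.22. Cd68 went the other way, at 5515 units against 7551 in the lowest osteosarcoma. The osteoclast level was 7.57 against 10.94 to 12.71, with 8 of 10 markers called lower, and the adipocyte level was 7.99 against 9.28 to 11.48. The 3 lymphocyte markers tested had a level of 8.03 against 6.05 to 7.58, but they did not move alike. Cd3g reached 200 units in this array only (205.6) and so had to differ to be tested. Cd8a was lower, at 103 units against an osteosarcoma median of 154, and Nkg7 had 538 against 4.2 to 271. The fibroblast level of 12.27 lay within the range of 10.51 to 12.56, but its markers went opposite ways. Fap had 577 units against 12292 to 29109 in the osteosarcomas, and Dpt had 3715 against 67.6 to 2149. Whether these differences bear on Igfbp5, Igfbp6 or Igf1 was not tested.

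Ordered by signal over the 14 arrays, the genes fell into different patterns. For Igf1 the order was mc3T3, then the tumour labelled rhabdomyosarcoma, then the 12 osteosarcomas; for Igfbp6 the first 2 places were exchanged. For Pappa2 mc3T3 came first, and the 13 tumours, all under 200 units, have no order. For Igfbp5 all 12 osteosarcomas came first, then the tumour labelled rhabdomyosarcoma, then mc3T3. For Igf2 the first 3 places were taken by osteosarcomas 2, 11 and 12, followed by mc3T3 and the tumour labelled rhabdomyosarcoma. For Pappa osteosarcomas 2, 1, 7 and 4 came first, and the lone arrays, both under 200 units, have no order among the other osteosarcomas.

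**Figure D3:**
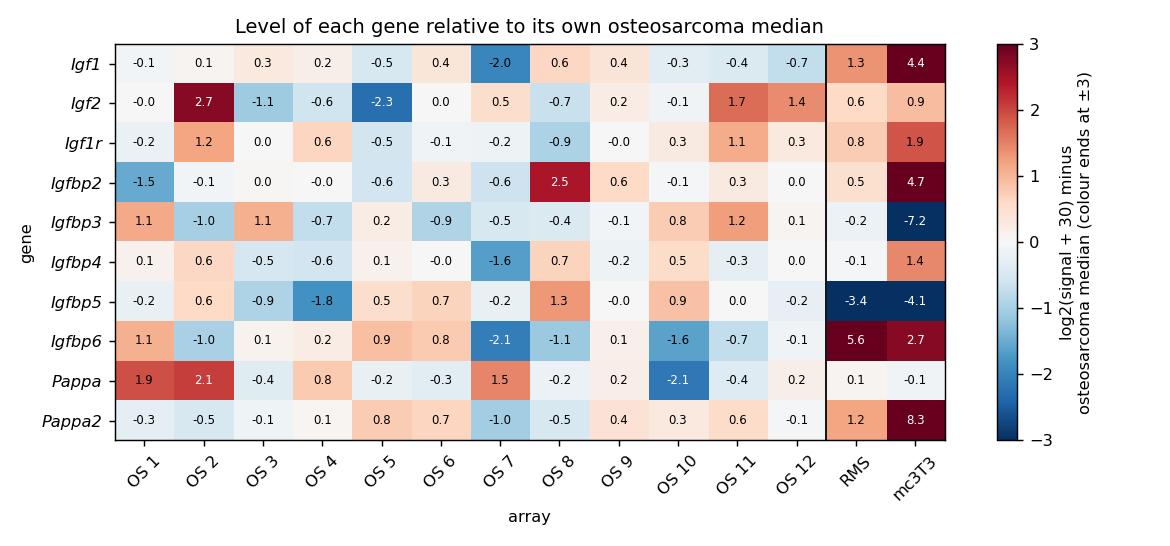
Level of each gene (rows) on each array (columns: osteosarcomas 1 to 12, the tumour labelled rhabdomyosarcoma and mc3T3) as log2(signal + 30) minus that gene's osteosarcoma median; red is above and blue below the median, and the colour ends at 3 in either direction. Osteosarcoma 7 is low for Igf1 and Igfbp4, and osteosarcoma 8 is high for Igfbp2.

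The spread of signal among the osteosarcomas was largest for Igf2, Pappa and Igfbp6. The SD of log2(signal + 30) over the 12 tumours was 1.33 for Igf2, and 97.4% of all genes tested had a lower one. It was 1.17 for Pappa, 1.02 for Igfbp6 and 0.93 for Igfbp2, against a median of 0.43 over all genes. At least 200 units were reached in 4 osteosarcomas for Pappa, 7 for Igfbp6 and 1 for Igfbp2. The SDs of these genes therefore rest partly on values that cannot be told from background. Igf1r (0.62), Igfbp4 (0.64), Igf1 (0.69), Igfbp3 (0.81) and Igfbp5 (0.84) varied less, and Pappa2 (0.54) least, at signals that were all under 200.

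A few tumours held the ends of these ranges. Osteosarcoma 2 had the most Igf2, Igf1r and Pappa, with 5140, 1114 and 704 units, and the least Igfbp3. Osteosarcoma 8 had the most Igf1, Igfbp2, Igfbp4 and Igfbp5. Its Igfbp2 signal of 800 was followed by 199.9 in osteosarcoma 9, so that it stood alone for this gene. Osteosarcoma 7 had the least Igf1 and Igfbp4, with 211 and 3934 units. It was also lowest for Igfbp6 and Pappa2, at 31.4 and 7.4 units, where 5 and 12 osteosarcomas respectively were under 200 and so have no order among themselves. This tumour also had the lowest fibroblast marker level, 10.51, against 11.98 to 12.56 in the other 11, and the part of that difference was not tested.

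Igfbp3 was highest in 4 tumours. Osteosarcomas 11, 1 and 3 had 12016, 11034 and 10636 units, and osteosarcoma 10 had 8549. The other 8 lay between 2515 and 5837 units. Pappa was above 200 units in 4 tumours only, at 704 in osteosarcoma 2, 640 in osteosarcoma 1, 453 in osteosarcoma 7 and 273 in osteosarcoma 4. Its second probe set ranged from 29.7 to 740 units.

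Whether the genes varied together was examined over the 12 osteosarcomas for all 45 pairs. By permutation test, 0 pairs passed at an adjusted p under 0.05, and 4 had an unadjusted Pearson p under 0.05. The strongest was the ligand and receptor pair Igf2 and Igf1r (r = 0.73, permutation p = 0.00778, adjusted p = 0.35; rho = 0.59, permutation p = 0.0495, adjusted p = 0.671). It was 0.53 without osteosarcomas 2 and 5, the tumours farthest from the median of Igf2. Igfbp4 and Igfbp5, the substrates of PAPP-A, had r = 0.62 (permutation p = 0.0367, adjusted p = 0.529) and rho = 0.74 (permutation p = 0.00785, adjusted p = 0.353), and r was 0.81 without osteosarcomas 7 and 8. Igf1 and Igfbp4 had r = 0.63 (permutation p = 0.0424, adjusted p = 0.529; rho = 0.22, permutation p = 0.498), but r was 0.01 without osteosarcomas 7 and 12, so that it rested on those tumours. The pappalysin genes had r = -0.58 with each other (permutation p = 0.047, adjusted p = 0.529; rho = -0.57, permutation p = 0.0596), with every Pappa2 value under 200, and r was -0.61 without osteosarcomas 2 and 10. The neighbours Igfbp2 and Igfbp5 had r = 0.40 (permutation p = 0.194, adjusted p = 0.835; rho = 0.26, permutation p = 0.419), and -0.03 without osteosarcomas 1 and 8.

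**Figure D4:**
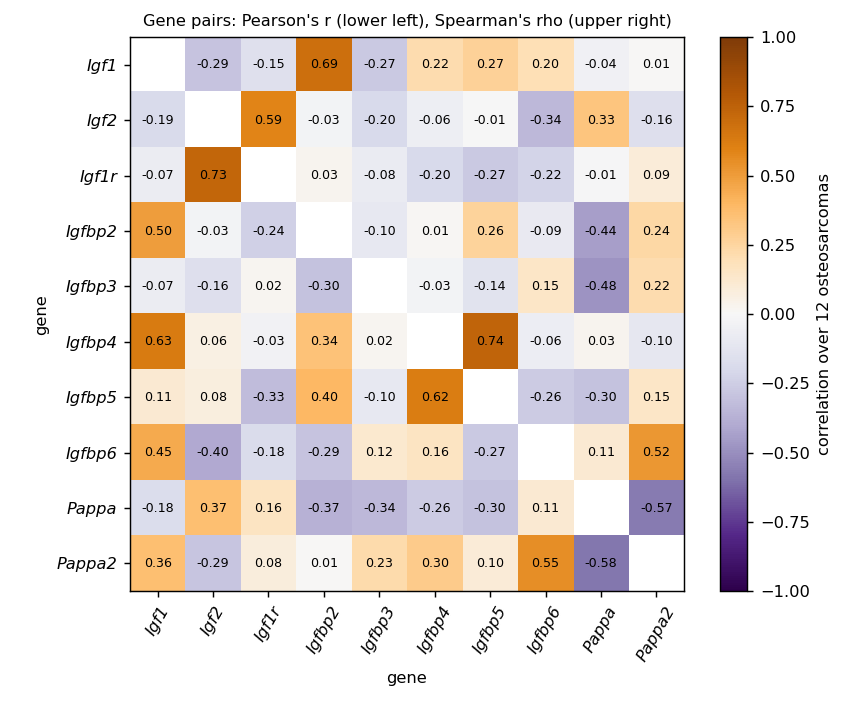
Correlation of each pair of genes over the 12 osteosarcomas on the log2(signal + 30) scale, with Pearson's r in the lower left and Spearman's rho in the upper right; colour runs from -1 (purple) to 1 (brown). The highest r is that of Igf2 and Igf1r (0.73) and the highest rho that of Igfbp4 and Igfbp5 (0.74), and no pair passed after adjustment over the 45 pairs.

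The genes were likewise compared with 12 cell type marker lists over the osteosarcomas, 120 relations in all. Again 0 passed at an adjusted p under 0.05 by permutation test, and 9 had an unadjusted Pearson p under 0.05. These 9 are given here, by marker list. Pappa2 and the fibroblast level had r = 0.76 (permutation p = 0.00167, adjusted p = 0.187; rho = 0.64, permutation p = 0.0281), with every Pappa2 value under 200, and r was 0.60 without osteosarcomas 7 and 9. Igfbp6, which reached 200 units in 7 of the 12 osteosarcomas only, and the fibroblast level had r = 0.69 (permutation p = 0.00311, adjusted p = 0.187; rho = 0.63, permutation p = 0.0321, adjusted p = 0.482), and r was 0.58 without osteosarcomas 7 and 9. Igf1 and the fibroblast level had r = 0.81 (permutation p = 0.0175, adjusted p = 0.526; rho = 0.55, permutation p = 0.0662), but r was 0.15 without the same tumours, so that it rested on them. Igf1 and the adipocyte level had r = 0.64 (permutation p = 0.0253, adjusted p = 0.57; rho = 0.76, permutation p = 0.00596, adjusted p = 0.435), and r was 0.59 without osteosarcomas 6 and 8. Pappa and the endothelial level had r = -0.70 (permutation p = 0.0123, adjusted p = 0.492; rho = -0.45, permutation p = 0.146), and r was -0.36 without osteosarcomas 6 and 10. Only 4 of the 12 osteosarcomas reached 200 units for Pappa, and osteosarcoma 10 had 9.6. Igf1 and the macrophage level had r = 0.60 (permutation p = 0.0332, adjusted p = 0.57; rho = 0.23, permutation p = 0.471), but r was 0.12 without osteosarcomas 7 and 11. Against the lymphocyte level, r was -0.63 for Igfbp3 (permutation p = 0.0328, adjusted p = 0.57; rho = -0.61, permutation p = 0.0408) and -0.48 without osteosarcomas 4 and 11. For Igf1 it was 0.546 with all tumours (permutation p = 0.0489, adjusted p = 0.601; rho = 0.545, permutation p = 0.071) and 0.545 without the same pair. The lymphocyte level rests on 3 genes of low signal. Cd3g did not exceed 123 units in any osteosarcoma, and Cd8a and Nkg7 reached 261 and 271 at most. Igf2 and the osteoblast level had r = 0.58 (permutation p = 0.0471, adjusted p = 0.601; rho = 0.59, permutation p = 0.0487), and r was 0.35 without osteosarcomas 5 and 12.

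For the 7 genes with an osteosarcoma median of at least 200 units, the 3 genes of most similar pattern over the 12 osteosarcomas were found by Pearson's r among all genes tested, as a description. For Igf1 they were the immune transcription factor Batf (0.907), Trim11 (0.889) and the RNA-binding protein Celf2 (0.884). For Igf2 they were Rap1gap (0.936), which switches off the small GTPase Rap1, Bcas3 (0.880) and Cyb5d2 (0.858). For Igf1r they were Nxf3 (0.879), Gid4 (0.859) and Camk2n1 (0.858), an inhibitor of the kinase CaMKII. Among the binding proteins, Igfbp3 was most like Gabra3 (0.856), the growth factor gene Ptn (0.844) and Tm9sf3 (0.822). Igfbp4 was most like the calcium channel gene Cacna1g (0.865), Trmo (0.864) and Abat (0.862). Igfbp5 was most like the mediator subunit gene Med1 (0.903), Msl1 (0.867) and the actin-binding caldesmon gene Cald1 (0.825). Igfbp6 was most like the matrix protein gene Efemp1 (0.901), Lrrc8e (0.898) and the lymphatic growth factor gene Vegfd (0.895). Lrrc8e was under 200 units in all 12 osteosarcomas, at 5 to 183, so its r rests on values that cannot be told from background. Several others were under 200 in some tumours, as Nxf3 was at 1.7 in the lowest.

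The rest of the pathway was read from a list of 31 genes, of which 23 had a probe set that reached 200 units. Against mc3T3, 2 of the 23 rose in the osteosarcomas, none fell and 21 did not pass, a share near the 8.59% of all genes called higher and the 13.2% called in either direction. Htra3, a secreted serine protease, had 845, 3413 and 6421 units in the lowest, median and highest osteosarcoma against 114 in mc3T3, and rose by 4.34 ± 0.71 (adjusted p = 0.000844). Stc1, whose product stanniocalcin-1 inhibits the pappalysins, had 363, 530 and 2240 units against 66.4, and rose by 2.80 ± 0.74 (adjusted p = 0.0204). Every osteosarcoma lay above mc3T3 for both genes. For the related inhibitor gene Stc2 the difference was 0.82 ± 0.74 (adjusted p = 0.506). The median difference of the list was -0.25. Of the receptors, Igf2r, which clears IGF2, had -0.65 ± 0.58 (adjusted p = 0.499) and Insr, the insulin receptor gene, 0.38 ± 0.56 (adjusted p = 0.711). Irs1, the adaptor that docks to the activated receptor, had 10221 units in mc3T3 and 2582 to 7717 in the osteosarcomas, and its difference of -1.07 ± 0.51 did not pass (adjusted p = 0.194). The number called moved to 5 with a constant of 100 in place of 30 or with quantile normalization, and to 4 without osteosarcoma 2, 8 or 12.

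In the tumour labelled rhabdomyosarcoma 3 of the 23 genes fell and none rose, where 1.76% of all genes were called lower and 2.95% in either direction. The list's median difference was 0.13. Htra3 had 246 units and fell by 3.40 ± 0.71 (adjusted p = 0.0172). Grb14, an adaptor that dampens insulin receptor signalling, had 212 units against 576, 1635 and 1957 in the lowest, median and highest osteosarcoma, and fell by 2.49 ± 0.58 (adjusted p = 0.0322). Adam12, a metalloproteinase that can cut IGFBP-3 and IGFBP-5, had 519 units against 900 to 3123 and fell by 2.05 ± 0.50 (adjusted p = 0.0415). Each of these values lay below every osteosarcoma. The Htra3 call was lost with the mean of its probe sets (adjusted p = 0.0537; 0.00207 to 0.0537 across the settings tried). The Grb14 call was lost with the tumours with m identifiers alone (adjusted p = 0.0591) and without osteosarcomas 6 and 9 (0.0531), within 0.0119 to 0.0591. The Adam12 call was lost under 13 of 20 alternatives (adjusted p = 0.00477 to 0.129), 9 of which left out a single tumour (osteosarcoma 1, 2, 3 or 6 to 11), and 1 of the 3 genes was called without osteosarcomas 6 and 9 or with the tumours with m identifiers alone. Ghr, the growth hormone receptor that induces Igf1 in many tissues, had 7431 units against 1839 to 4485, and its difference of 1.40 ± 0.43 did not pass (adjusted p = 0.103).

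Igf2 is imprinted, and 9 other imprinted genes were measured beside it. Against mc3T3 limma called 0 of the 9 (1 had an unadjusted p under 0.05), and the median difference was 0.12. Plagl1, a zinc finger factor that can act on Igf2, had 24024 units in mc3T3 and 23.6, 2559 and 7066 in the lowest, median and highest osteosarcoma, with a difference of -3.67 ± 1.76 (adjusted p = 0.192). The tumour labelled rhabdomyosarcoma stood out for 2 of the 9, both of which reached 200 units in that array only and so had to differ to be tested; they are given with no p. Dlk1, a Notch-like regulator of differentiation, had 1048 units, while the osteosarcomas had 73.3 to 145 and mc3T3 had 55.3. Nnat, which encodes neuronatin, had 263 units, while the osteosarcomas had 3 to 91.3 and mc3T3 had 5.4. Igf2 itself differed by 0.44 ± 1.22 in this comparison (adjusted p = 0.899).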

How the data were processed

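The deposited values are array signals (intensity, linear scale) of 45101 probe sets on 14 arrays, 64 of them control probe sets; per the submitters' processing notes they were made with GCOS, and no source used here gives the background step or how probes were summarised. Without the highest and lowest 2% of probe sets the deposited mean was 500.0 on every array, and arrays were rescaled to 500 exactly. Samples were grouped by title; osteosarcoma numbers follow accession order and only name tumours. Symbols came from the platform annotation, updated by Entrez identifier (GRCm38.p6 gene table). Probe sets reaching 200 on any array were kept, a gene was its brightest one, and log2(signal + 30) was fitted with limma 3.58.1 in R 4.3.3 (3 groups, two-sided, Benjamini-Hochberg over 11815 genes). That scale understates changes of low genes. The spread comes from the 12 osteosarcomas (11 residual and 3.56 prior degrees of freedom), so each lone array is assumed to vary as they do; the number of arrays limits the precision. Correlations used 100000 permutations, adjusted over 45 pairs and over 120 marker relations. The fit and the correlation test were checked on simulated data. Genes named are the 10, called list genes (at most 8 per list) and the 3 most similar genes of each; Igf2r, Insr, Irs1, Stc2, Ghr and Plagl1 were added after their values were seen. The 10 genes and all lists were chosen with earlier results of these data known. Alternatives were other constants (10, 100), no filter, quantile normalization, other probe set choices, a variance trend, and subsets of tumours.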

Additional observations from a re-analysis of the deposited data

How the results depend on the processing

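The alternatives covered the constant, the filter, the normalization, the probe set, a variance trend and the tumours included. Of 554 values of single genes under alternatives, 506 kept their direction and call, 34 lost the call, 6 gained one and 8 changed sign, none of them called on either side. Against mc3T3 the difference of Igf2 became 0.089 with the next brightest probe set and that of Pappa -0.31 with the tumours with m identifiers. That Igf2 probe set did not exceed 36.6 units on any array, so its values here and in the next sentence cannot be told from background. For the tumour labelled rhabdomyosarcoma, Igf2 became -0.26 with the next brightest probe set, Igfbp4 -0.250 and Pappa 0.505 with the m tumours, Igfbp4 -0.005 and -0.103 without osteosarcoma 4 or 7, and Pappa 0.003 without osteosarcoma 2. Leaving out 1 osteosarcoma gave -0.103 to 0.108 for Igfbp4 and -0.380 to 0.003 for Pappa there. The members called against mc3T3 numbered 6, where 13.2% of all genes tested were called, and they include Pappa2, which had to differ. Their number stayed within 1.5 times of 6 under every alternative, though Igfbp4, Igfbp5, Igfbp6 and Igf1r changed call as given above. Against the tumour labelled rhabdomyosarcoma the 2 members called became 1 with the mean of a gene's probe sets, with the next brightest probe set and without osteosarcomas 6 and 9. The 2 other pathway genes called against mc3T3 became 5 with a constant of 100, 5 with quantile normalization, 6 with the mean of probe sets and 4 with the tumours with m identifiers, and leaving out 1 osteosarcoma gave 2 to 4. The 3 called for the tumour labelled rhabdomyosarcoma became 1 with the m tumours and 1 without osteosarcomas 6 and 9. No relation passed with a constant of 100, with quantile normalization or without osteosarcomas 6 and 9 (lowest adjusted p 0.184 to 0.684 by permutation test). The causes were not tested. No paired analysis was possible because mc3T3 and the tumour labelled rhabdomyosarcoma have 1 array each. A signal under 200 has no detection call behind it, which limits Pappa2, Igfbp2, Pappa and Igfbp6 in the osteosarcomas and Igfbp3, Htra3 and Stc1 in mc3T3.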
